A study of Mus musculus with 4 samples.

Results

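Neuropeptides are small secreted signals that neurons make alongside a fast transmitter. Each is cut from a larger precursor protein, packed into dense-core vesicles and released when a neuron fires hard, and most act on receptors coupled to G proteins. In the hippocampus, genes for such precursors mark classes of GABAergic interneurons, and several of them are also made in regions that border CA1. The genes described here are Sst, Npy, Cck, Vip, Cort, Tac1, Penk and Pdyn. These are 8 of the 8251 genes on the array, and they were read by every probe set whose only gene symbol in the platform's annotation is 1 of the 8. That gave 11 probe sets of 12488, 3 for Penk, 2 for Pdyn and 1 for each of the others. Annotation gave no probe set that reads a member together with another gene.

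The tissue was the CA1 region of the hippocampus of young male C57BL/6J mice that had received foot shock, and the measurement was total RNA hybridised to Affymetrix arrays. According to the labels, all mice were put into the new context 2 h ahead of a training session with 3 shocks of 0.5 mA each, a condition the labels name shock alone. The hours that separated the last shock from RNA extraction were 1, 2, 4 or 6, with 1 array for each and 4 in all. The labels do not give the number of mice behind an array, and unshocked animals were not analysed here, so each time was set against the other times only. In whole-tissue RNA, fewer cells of a type and less RNA per cell cannot be told apart.

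Many neuropeptide genes are known to be switched on through CREB, a transcription factor that binds the cAMP response element TGACGTCA or its half-site CGTCA. The stretches below, from RefSeq promoters (GRCm38.p6), are shown because they locate these letters before the transcript starts of the members. The promoter table held 7 of the 8 genes and lacked Penk. Within the 250 bases before the start, searched on both strands (the half-site reads TGACG on the other strand), 5 of the 7 had the half-site. The same was true of 17.8% of all 32851 promoters listed. The full element, which is its own reverse complement and contains the half-site in both directions, was found in Sst alone among the 7 and in 1.55% of all promoters. Capitals mark the match, and each stretch is written 5′ to 3′ on the gene's strand.
Sst, chr16:23890865-23890912, minus strand, match beginning 48 bases before the start: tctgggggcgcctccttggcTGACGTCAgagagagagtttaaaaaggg
Cck, chr9:121495717-121495761, minus strand, 47 bases before the start: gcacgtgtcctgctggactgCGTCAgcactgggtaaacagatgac
Vip, chr10:5639119-5639163, plus strand, 79 bases before the start: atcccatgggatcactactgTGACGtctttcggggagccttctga
Cort, chr4:149126764-149126801, minus strand, 18 bases before the start: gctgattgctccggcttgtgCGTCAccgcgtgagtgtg
Tac1, chr6:7554844-7554888, plus strand, 197 bases before the start: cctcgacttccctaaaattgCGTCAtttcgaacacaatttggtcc
Tac1, chr6:7554998-7555042, plus strand, 43 bases before the start: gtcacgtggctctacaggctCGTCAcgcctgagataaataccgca
Npy, with 1 start in the table, and Pdyn, with 2, held neither form in this window. A match describes the letters and is not evidence of binding. The ranges over the 4 arrays, given with each gene below, ran from 1.14-fold (Cck) to 2.25-fold (Cort) in the 5 genes with a match, and were 1.19-fold for Npy and 1.52-fold for Pdyn.

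Intensities below are the deposited linear values after a small scaling of each array, and the number of arrays limits their precision. A floor of 100.8, the 40th percentile of all scaled values, separates probe sets read with some confidence from dim ones. Of the 11 member probe sets, 9 lay above the floor on all 4 arrays, and 2 lay below it on all 4. Each of the 8 genes had at least 1 probe set above the floor at every time. A probe set's brightness depends on its oligonucleotides, so levels were compared within a probe set and not between genes. Of 7 markers of CA1 pyramidal neurons on the array, 5 were above the floor on all arrays, and Ptn was below it on all.

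The members fell into 2 kinds. Sst, Npy, Cck, Vip and the brightest Penk probe set differed by 1.14- to 1.25-fold between their highest and lowest arrays, whereas Cort, Tac1, Pdyn and a dimmer Penk probe set differed by at least 1.5-fold. That made 4 of 9 with a range of 1.5-fold or more, beside 27.9% of the 6442 probe sets above the floor on all arrays. The count was 2 without the 2 h array, and 1 when the 60th percentile served as the floor. Dim probe sets varied more throughout the array. The median range was 1.49-fold below a mean intensity of 400 and 1.18-fold above 2000, and of the 4 only Cort had a mean above 400.

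**Figure D1:**
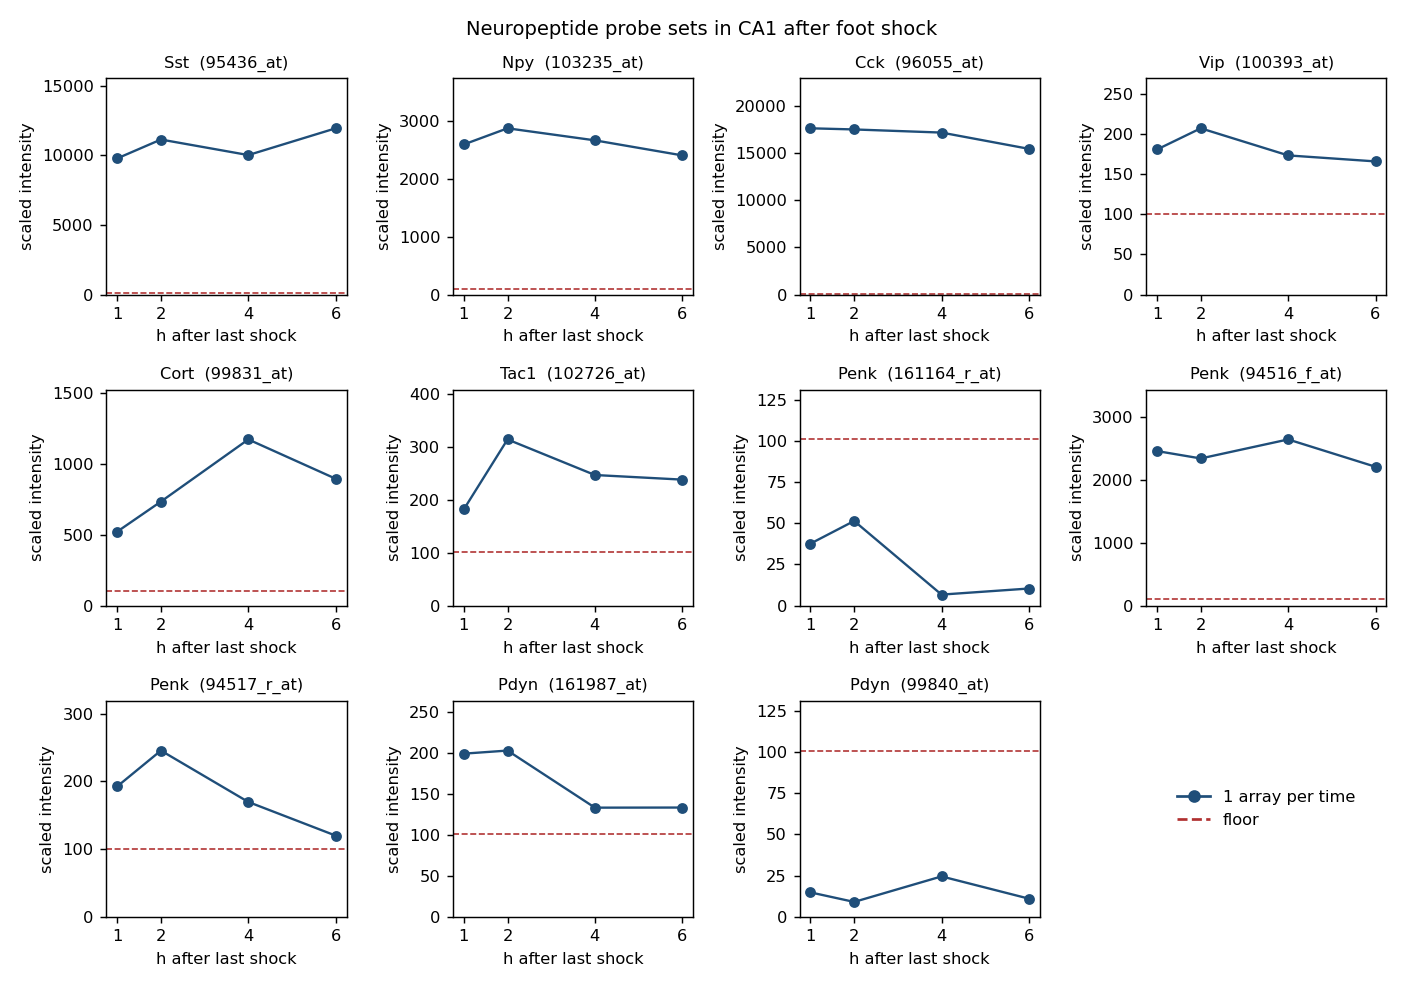
Scaled intensity (vertical axis, from 0) of each of the 11 member probe sets at 1, 2, 4 and 6 h after the last shock, with 1 array per time and the floor of 100.8 as a dashed line. Sst, Npy, Cck and Penk 94516_f_at stay nearly level, Cort is lowest at 1 h and highest at 4 h, and Penk 161164_r_at and Pdyn 99840_at lie below the floor throughout.

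Somatostatin, the inhibitory peptide of interneurons that contact the outer dendrites of pyramidal cells, is encoded by Sst. Its probe set, 95436_at, read 9773, 11128, 10012 and 11934 at 1, 2, 4 and 6 h. The highest array, at 6 h, was 1.22-fold above the lowest, at 1 h, and the 2 h array lay between 4 h and 6 h, so the values followed no single direction over time. A range at least this wide was seen in 27.2% of 261 probe sets whose mean intensity was within 2-fold of that of Sst. It was the only one of the 8 genes that was highest at 6 h.

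Neuropeptide Y, from Npy, is made by several interneuron classes and dampens glutamate release. Probe set 103235_at read 2597, 2877, 2668 and 2408 at 1, 2, 4 and 6 h. The 2 h array was highest and the 6 h array lowest, 1.19-fold apart, and 54.4% of 1151 probe sets of like brightness ranged at least as widely. Cholecystokinin, from Cck, marks a class of basket cells and is also made by excitatory neurons of the neocortex and thalamus. Its probe set, 96055_at, read 17648, 17526.5, 17194 and 15466.5 over the same times. Each later array was lower than the one before, by little until 4 h, and the 1 h and 6 h arrays were 1.14-fold apart. Of 165 probe sets as bright as Cck, 47.3% had a range at least as wide.

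Vasoactive intestinal peptide, from Vip, marks interneurons that mainly inhibit other interneurons. Probe set 100393_at was dim, at 181, 207, 173 and 166 at 1, 2, 4 and 6 h. The 2 h value was 1.25-fold above that at 6 h, and 84.0% of 2235 probe sets of like brightness had a range at least as wide, so Vip was among the steadier probe sets at its brightness. Its mean of 182 stood less than 2-fold above the floor.

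Cortistatin, from Cort, is a relative of somatostatin that binds somatostatin receptors and is made by a subset of cortical and hippocampal interneurons. Its probe set, 99831_at, read 522, 734, 1173 and 896 in the order of the hours. The 1 h array was lowest and the 4 h array highest, and both later arrays stood above both earlier ones. The 4 h value was 2.25-fold that at 1 h, a log2 difference of 1.17. Between the same arrays the log2 differences of all 6886 probe sets above the floor on both had a robust SD of 0.286. Only 1.63% of 2703 probe sets of like brightness, and 3.51% of all those above the floor, had a range as wide as that of Cort. Neighbouring levels were closer: 6 h was 0.29 (log2) above 2 h, within the robust SD of 0.317 for that pair, while 6 h was 0.39 below 4 h, where the robust SD was 0.262. Cort was the only member probe set at least 1.5-fold higher at 4 h than at 1 h, beside 3.38% of all probe sets. The same held at 4 h over 2 h, beside 4.46%, and at 6 h over 1 h, beside 3.76%.

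Gad1 and Slc32a1, general markers of GABAergic neurons, had narrower ranges than Cort. Their mean intensities were above 2000, where the median range of all probe sets was 1.18-fold. Gad1, which makes GABA, read 4568, 4395, 5008 and 4466 at 1, 2, 4 and 6 h, also highest at 4 h but within 1.14-fold. Slc32a1, the vesicular GABA transporter, read 3355, 2881, 3214 and 2937, highest at 1 h and within 1.16-fold. Both were picked after their values were seen. Across the interneuron marker list, 22 of 28 genes were on the array and 12 were above the floor on all 4 arrays. The 22 summed to 16189, 14729, 15758 and 15199, most of it from Gad1, Slc32a1 and Pvalb. Counted by gene, 3 of the 14 with a mean above the floor were above their other times at 4 h and 11 below (median −0.11). At 6 h 2 were above and 12 below. Of all 5671 genes with such a mean, 2789 were above at 4 h and 2882 below, and 2771 were above at 6 h and 2900 below. Among the 14, Kcnc1, at 215, 165, 33.2 and 27.6, was under the floor at 4 h and 6 h. Dlx5, at 125, 147, 114 and 66.5, was under it at 6 h. Their means passed through the other times, so their places below at these times were fixed in advance. Gad2, Dlx6, Erbb4, Nos1, Sox6, Cnr1 and Pnoc were below the floor on every array. With the largest ranges in that list, Tac2 read 212, 316, 164 and 192, Lhx6 read 576, 319, 334 and 392, and Reln, a matrix protein of many interneurons, read 740, 638, 1108 and 797. Calb2, the calcium-binding protein calretinin, read 325, 402, 276 and 252. Of these, Reln was also highest at 4 h, whereas its dimmer probe set read 166, 151, 97.3 and 31.4 and was lowest at 6 h.

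Markers of CA1 pyramidal neurons, 7 of 12 listed genes on the array, summed over the 7 to 5796, 5462, 7121 and 6442 at 1, 2, 4 and 6 h. Of the 5 above the floor, 3 were above their other times at 4 h and 2 below, beside 2789 above and 2882 below of all 5671 genes. Wfs1 read 1709, 1637, 2608 and 2205, and Neurod6 read 768, 648, 1263 and 1089, so both were highest at 4 h, the time at which Cort was highest. Lmo1, at 1253, 1117, 1455 and 1557, was highest at 6 h, and Pou3f1, at 484, 455, 355 and 359, was lowest at 4 h. Neocortical markers were lowest at 4 h, with sums of 4129, 3868, 2686 and 3152. At 4 h, 0 of the 4 with a mean above the floor were above their other times, beside 2789 of 5671 over all genes. Fezf2 read 2133, 2158, 1375 and 1579, and Tbr1 read 1003, 827, 699 and 980. Nr4a2, which neuronal activity also induces, read 805, 713, 483 and 388 and was lowest at 6 h. The part of tissue makeup in the values of Cort was not tested.

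Tac1 encodes the precursor of substance P and neurokinin A, made by some interneurons and by striatal neurons of the direct pathway. Its probe set, 102726_at, read 182, 314, 247 and 238 from 1 to 6 h. The 1 h array was lowest and the 2 h array highest, with 4 h and 6 h close to each other, 0.05 apart on the log2 scale. At 2 h it was 1.73-fold higher than at 1 h, the only member probe set past 1.5-fold in that comparison, beside 5.59% of all probe sets. Among 2962 probe sets of like brightness, 24.3% had a range at least as wide.

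Penk, the precursor of the enkephalins, opioid peptides of some interneurons and of striatal neurons of the indirect pathway, had 3 probe sets, and they gave different courses. The brightest, 94516_f_at, read 2464, 2346, 2649 and 2213 at 1, 2, 4 and 6 h. Its highest array, at 4 h, was 1.20-fold above its lowest, at 6 h. Probe set 94517_r_at read 193, 246, 170 and 120, highest at 2 h and lowest at 6 h, where it was 2.05-fold below the 2 h value. The 2 h array thus stood highest in the dim probe set and next to lowest in the bright one. Probe set 161164_r_at, at 37.6, 51.4, 6.70 and 10.4, was below the floor at every time. Suffixes f and r in these names are the array maker's marks for probe sets that may match a family of transcripts or that did not meet all design rules, so no single course of Penk could be given. A range as wide as that of 94517_r_at was seen in 11.3% of 2239 probe sets of like brightness.

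Prodynorphin, from Pdyn, is the precursor of the dynorphins, opioid peptides of dentate granule cells and of striatal neurons of the direct pathway. Probe set 161987_at read 199, 203, 133 and 133 in time order. The 2 earlier arrays were near each other and the 2 later ones were near each other, without overlap. At 4 h the log2 value was 0.61 below that at 2 h, against a robust SD of 0.310 for this pair. Of 2058 probe sets as dim as this, 47.0% ranged at least as widely, so its range of 1.52-fold lay near the middle. After scaling to a common median or quantile normalization 3 member probe sets reached 1.5-fold, and quantile normalization moved the 4 h to 2 h difference of Pdyn to −0.48. The other probe set, 99840_at, at 14.8, 9.01, 24.5 and 11.0, was below the floor on all arrays.

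**Figure D2:**
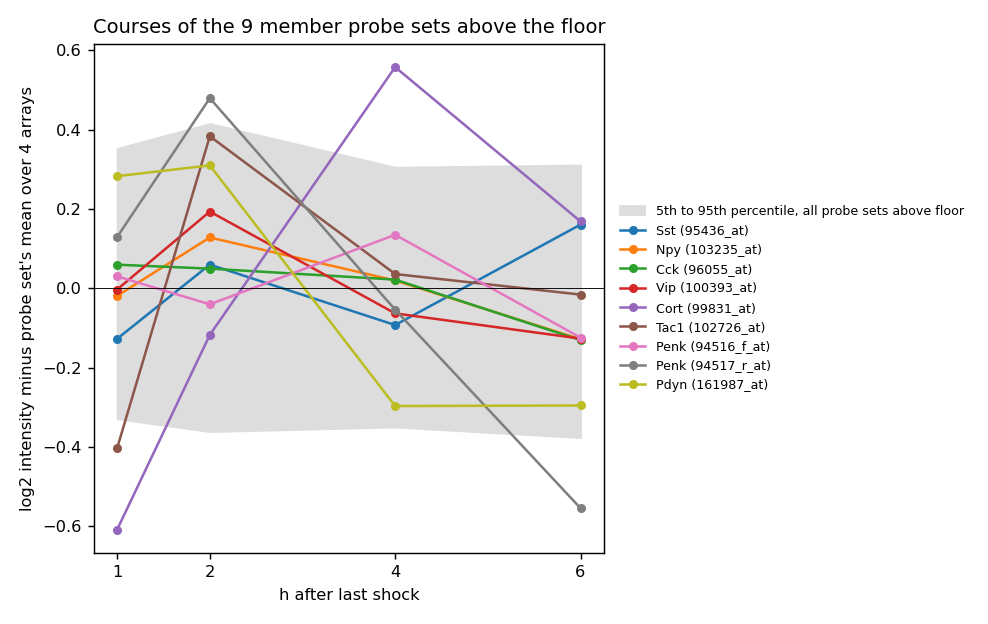
Log2 intensity of each of the 9 member probe sets above the floor, minus its own mean over the 4 arrays, against hours after the last shock, with the 5th to 95th percentile of all 6442 such probe sets in grey. Cort leaves the grey band at 1 h (below) and at 4 h (above), Tac1 leaves it at 1 h, and Penk 94517_r_at leaves it at 2 h and at 6 h.

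No member probe set stood apart at a single time, with all 3 remaining arrays at least 1.5-fold away on the same side, beside 6.30% of all probe sets above the floor. With a limit of 1.3-fold there were 3, beside 19.0% of all. In pairs of times, 2 member probe sets fell short of their 2 h value by 1.5-fold or more at 6 h, Penk 94517_r_at and Pdyn 161987_at, beside 7.12% of all. Penk 94517_r_at did so relative to 1 h too, beside 5.82%, and Pdyn 161987_at was lower by as much at 4 h than at 2 h, beside 6.95%. Between 4 h and 6 h no member differed by that much, beside 3.93% higher and 4.12% lower at 6 h. These pairs share arrays, so they are not separate observations.

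Both later arrays lay below both earlier ones in 4 of the 9 member probe sets, Cck, Vip, Penk 94517_r_at and Pdyn 161987_at, beside 21.0% of all probe sets above the floor. They lay above in 1, Cort, beside 18.3%. This comparison was chosen after the values were seen. The 4 lower ones became 2 when arrays shared a median, 2 after quantile normalization and 1 with the higher floor, which takes dim probe sets out of the count.

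Over the 8 genes, each read by its brightest probe set, 4 were highest at 2 h (Npy, Vip, Tac1 and Pdyn), beside 28.3% of 5018 genes above the floor on all arrays. In Npy, Vip and Pdyn the 2 h value was only 0.15, 0.20 and 0.03 (log2) above that at 1 h. These differences lie within the robust SD of 0.285 for that pair. At 6 h, 4 were lowest (Npy, Cck, Vip and Penk), beside 25.7%. The median log2 value of the 8 at 2 h was 0.13 above the mean of the other 3 times, with 6 above and 2 below, beside a median of 0.02 and 52.4% above over 5671 genes with a mean above the floor. Scaling to a common median brought the members' median at 2 h to 0.04. At 6 h the median was −0.17, with 6 below and 2 above, beside −0.01 and 51.1% below over all genes, and −0.09 with arrays set to a common median. At 1 h and 4 h it was −0.01 and 0.03, beside 0.01 and −0.00. A list of 13 immediate early genes, which neurons induce rapidly with activity, had medians of 0.40 at 2 h and −0.34 at 6 h. The 2 h array was the one with the highest ratio of 3′ to 5′ actin control probe sets, 2.70 against 1.84, 1.79 and 1.74 at 1, 4 and 6 h, and the part of RNA quality in the members' values was not tested. The 6 h array held the choroid plexus transcript Ttr at 4482, against 111, 89.9 and 198 at 1, 2 and 4 h, and its part was not tested either.

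**Figure D3:**
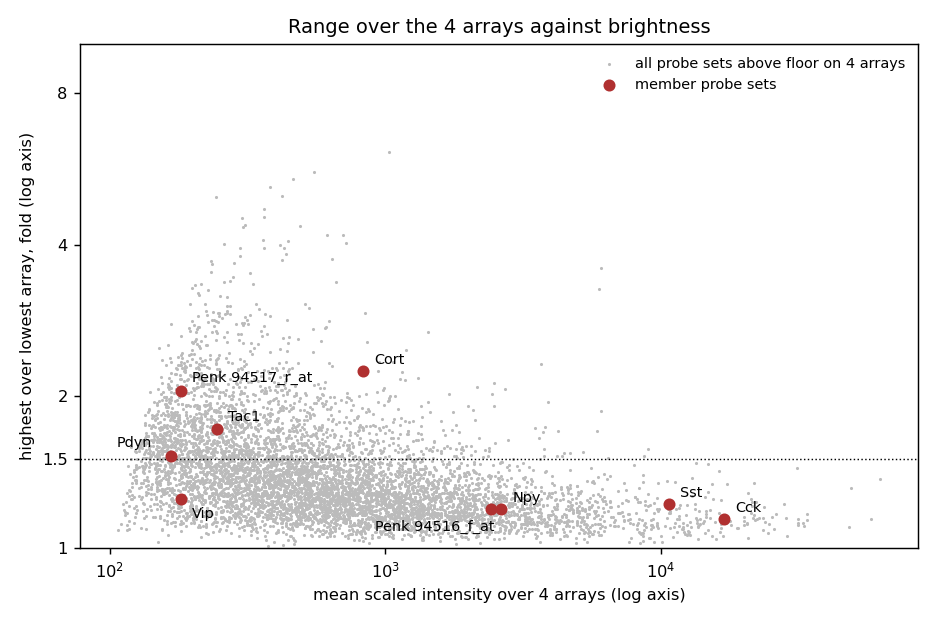
Fold between the highest and lowest of the 4 arrays (log axis) against mean scaled intensity (log axis) for the 6442 probe sets above the floor on all arrays, in grey, and the 9 member probe sets, in red, with 1.5-fold as a dotted line. Cort, at 2.25-fold, lies near the top of the probe sets at its brightness, while Vip, at 1.25-fold, lies low among dim ones.

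A straight line over the hours was fitted to all 12422 probe sets other than controls with limma, which takes the scatter about the line as error. At an adjusted p under 0.05, 0 probe sets rose and 0 fell (0.00% each), members included, and 662 had an unadjusted p under 0.05 (5.33%), none of them a member. Probe sets held at the floor on all arrays have no scatter and distort this fit. Over the 8587 probe sets above the floor on at least 1 array it again called 0, with 490 at an unadjusted p under 0.05 (5.71%). Among those 490 were 2 member probe sets. Pdyn 161987_at had a slope of −0.14 log2 per hour (95% interval −0.26 to −0.02, limma adjusted p = 0.831). Penk 94517_r_at had a slope of −0.17 (95% interval −0.32 to −0.01, limma adjusted p = 0.834). Cort had the steepest upward slope of the members, 0.16 per hour with a 95% interval of −0.05 to 0.38 (limma adjusted p = 0.834). For Sst, Npy, Cck, Vip and Penk 94516_f_at the slopes lay between −0.04 and 0.04, and for Tac1 the slope was 0.03 with an interval of −0.18 to 0.23.

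Genes whose courses were most like those of the 4 variable member probe sets were found by the root mean square difference of log2 values, each centred on its own mean, over the 4 arrays. The search ran over genes above the floor that themselves ranged by at least 1.5-fold, 1319 for Cort. Nearest to Cort were Sema3e, a secreted guidance cue, at 0.08, the lipid phosphatase gene Inppl1 at 0.09 and Pcsk6, a convertase that cuts precursor proteins, at 0.10. Sema3e read 505, 708, 993 and 798 at 1, 2, 4 and 6 h. Only 3 genes came within 0.1 of Cort, whereas 32 did so for Tac1, 28 for Pdyn 161987_at and 19 for Penk 94517_r_at. Tac1 was nearest to Eda (0.04), Tenm3 (0.05) and Cma1 (0.05). Penk 94517_r_at was nearest to Dffa (0.02), Paqr7 (0.03) and Rbms1 (0.04), and Pdyn 161987_at to Gmppb (0.04), Emc8 (0.05) and Tor3a (0.05). With 4 points per course such likeness is a description only.

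Neuropeptide receptor genes were often below the floor. Of 21 receptor genes listed, 20 were on the array and 6 were above the floor on all arrays, while Sstr1, Sstr3, Npy4r, Npy5r, Cckar, Tacr1, Oprd1, Oprk1 and Oprm1 were below it on every array. Of all 8251 genes, 5018 were above the floor on all arrays and 1873 below it on all. Among the 6 receptor genes, 4 ranged by at least 1.5-fold, beside 26.3% of all genes. That share is not matched for brightness. Of the 4, Sstr2 and Npy1r were below 400 on every array, and Oprl1 at every time but 1 h. Below a mean intensity of 400 the median range of all probe sets was 1.49-fold. Npy2r, a presynaptic receptor for neuropeptide Y, read 907, 1096, 1331 and 1447 at 1, 2, 4 and 6 h, higher at each later time, and its second probe set read 298, 265, 349 and 350. The limma slope of Npy2r did not pass the test (adjusted p = 0.831 over the 8587). Npy1r, the other main receptor for this peptide, was highest at 1 h, at 186, 128, 117 and 130. Sstr2, a somatostatin receptor, read 164, 251, 234 and 197, lowest at 1 h, whereas its other probe sets read 216, 220, 174 and 109, and 166, 134, 214 and 147. Oprl1, the nociceptin receptor, read 458, 313, 290 and 346. None of the 20 passed the trend test in either direction, but neither did any of the 12422 probe sets, so this does not describe receptors in particular.

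In the list of genes that cut, modify and store the precursors, 19 of 22 were on the array and 14 were above the floor on all arrays. The 14 had a median range of 1.20-fold, beside 1.31-fold for all genes, and 3 (21.4%) reached 1.5-fold, beside 26.3% of all genes. These comparisons are not matched for brightness. Several of the 14, Chgb among them, read above 2000 on every array, and above a mean of 2000 the median range of all probe sets was 1.18-fold. Pcsk6 read 116, 192, 282 and 197 at 1, 2, 4 and 6 h, a range of 2.42-fold with the arrays in the same order as for Cort. Ctsl, the protease cathepsin L, read 1036, 814, 957 and 1446, and Ece1, an endothelin-converting enzyme, read 619, 377, 498 and 492. Chgb, a core protein of dense-core vesicles, read 14817, 12599, 15696 and 16286, all within 1.29-fold. None of the 19 passed the trend test in either direction, nor did any of the 12422 probe sets. The summed intensity of the 19 was 63290, 61224, 60595 and 60457.

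**Figure D4:**
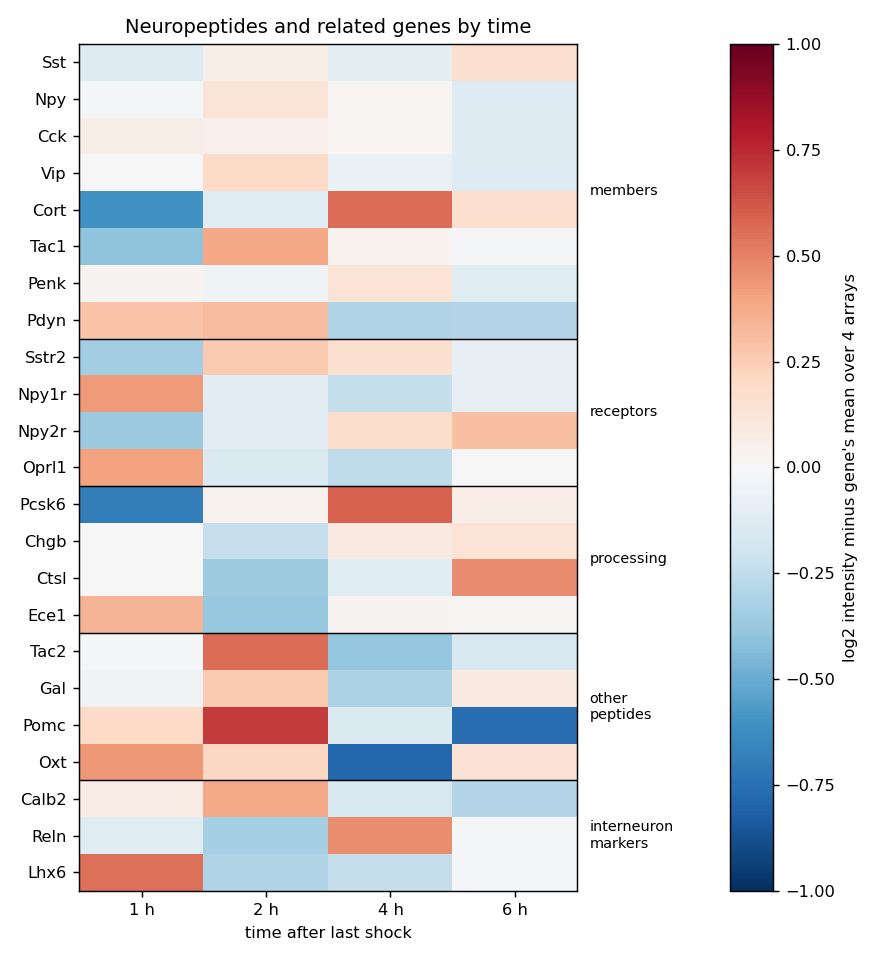
Log2 intensity minus each gene's own mean over the 4 arrays (colour, from −1 to 1) at 1, 2, 4 and 6 h for the 8 members, each by its brightest probe set, and for the genes with the largest ranges among receptors, processing genes, other neuropeptides and interneuron markers. Cort and Pcsk6 are low at 1 h and high at 4 h, Pomc and Tac2 are high at 2 h, and Sst, Npy, Cck, Vip and Penk are pale throughout.

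Other neuropeptide genes were also often below the floor. Of 27 listed, 13 were on the array and 5 were above the floor on all arrays, with Pnoc, Nmb, Avp, Nppc and Nmu below it throughout. Over all 8251 genes, 5018 were above it on all arrays and 1873 below it throughout. The median at 2 h over the 6 with a mean above the floor was 0.55, on the array with the actin ratio of 2.70. At that time 6 were above their other times and 0 below, beside a median of 0.02 and 52.4% above for all genes. Among the 6, Hcrt, at 30.9, 273, 70.0 and 52.4, was above the floor at 2 h only. Hcrt passed this filter through its 2 h value, so its place above the other times was fixed in advance. Pomc, the precursor of beta-endorphin, read 225, 319, 179 and 116 at 1, 2, 4 and 6 h, and Tac2, the neurokinin B precursor, read 212, 316, 164 and 192. Gal, which encodes galanin, read 291, 358, 239 and 318, and Oxt, which encodes oxytocin, was lowest at 4 h, at 530, 451, 227 and 433. None of the 13 passed the trend test in either direction, nor did any of the 12422 probe sets.

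Tac1, Penk and Pdyn are abundant in the striatum, and Pdyn in the dentate gyrus, so marker lists of these regions were read beside them. Striatal markers had 6 of 16 genes on the array and 4 with a mean above the floor, and Rgs9 and Isl1 were below it on every array. Their summed intensity was 1444, 1772, 1520 and 1362 at 1, 2, 4 and 6 h, highest at 2 h as for Tac1, Pdyn 161987_at and Penk 94517_r_at, and lowest at 6 h as for both Penk probe sets above the floor. The brighter of these, 94516_f_at, was highest at 4 h and next to lowest at 2 h. A sum highest at 2 h was not particular to striatal markers. Sums of the receptor, other neuropeptide, thalamic, CA3 and CA2 and immediate early gene lists were highest at 2 h too. Of the striatal markers, Pde1b read 665, 793, 575 and 517, and Rasgrp2 read 179, 225, 159 and 137. Foxp1, at 401, 524, 637 and 532, was highest at 4 h. Dentate granule cell markers had 9 of 12 genes on the array, with Prox1 and Trpc6 below the floor on every array, and summed to 3455, 3057, 3750 and 2416. Of the 4 above the floor on all arrays, 3 were above their other times at 4 h and 0 at 6 h, beside 2789 and 2771 of 5671 over all genes. Among them only Cdkn1a, at 407, 482, 270 and 137, was higher on both earlier arrays than on both later ones, as Pdyn 161987_at was. That order was seen in 21.0% of all probe sets above the floor. Cdkn1a is a cell cycle inhibitor whose expression is not confined to granule cells. Lct, at 245, 248, 582 and 240, and Dsp, at 167, 129, 223 and 162, were highest at 4 h, where Pdyn 161987_at was low. Calb1, the calcium-binding protein calbindin, read 2412.5, 2017, 2277 and 1708. The part of these regions in the values of Tac1, Penk and Pdyn was not tested.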

How the data were processed

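The authors deposited 1 table of linear intensity values, all above 0, for 12488 probe sets on 4 arrays of the mouse CA1 region, 1 each at 1, 2, 4 and 6 h after foot shock. As deposited, every array had a mean of 500.3 once 2% of values was trimmed from either end. The software behind these values is not given in the sources used here, nor are detection calls.

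Arrays were scaled to 1 such mean over the 12422 probe sets that are not among the 66 controls, values under the 40th percentile (100.8) were set to it, and log2 was taken. Intensities are printed before the floor. Of the 12422, 10833 had 1 gene symbol in the platform annotation and 10817 of these were found by gene identifier in RefSeq, with 0 symbols changed. A gene with several probe sets was read by the one with the highest mean in counts over genes, giving 8251 genes.

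With 1 array per time no replicate error exists, and spread is given as the robust SD of log2 differences between 2 arrays or as the share of probe sets with a mean within 2-fold that ranged as widely. The only test was a linear trend over hours with limma (Benjamini-Hochberg adjustment, 2 residual degrees of freedom before moderation). Tested on simulated data, this fit over all probe sets recovered none of the planted trends, and the same fit over the probe sets above the floor on at least 1 array recovered most of the steep ones and few of the shallow ones, so both are given. Members, lists and tests were chosen with earlier results of these data known. The genes named are all member probe sets, up to 4 genes per list with the largest range, and the 3 most alike per variable member. The rule also takes Ttr and the actin control probe sets, as values that describe the arrays. Gad1, Slc32a1, Pvalb, Hcrt, Kcnc1, Dlx5 and those listed as below the floor lie outside it. Promoters came from RefSeq (GRCm38.p6). Alternatives changed scaling, floor, fold limit, time scale and the arrays and probe sets used. Python 3.11.15, NumPy 2.4.6, pandas 2.3.3, matplotlib 3.10.9, R 4.3.3 and limma 3.58.1 were used.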

Additional observations from a re-analysis of the deposited data

How the results depend on the processing

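The count of member probe sets apart at 1 time was 0 under each scaling and floor and with a limit of 2-fold, and 3 with 1.3-fold. The count that ranged by at least 1.5-fold, 4, was 1 with the floor at the 60th percentile, which takes dim probe sets out of the count. It was 2 with a limit of 2-fold and 2 without the 2 h array, and between 3 and 4 under the other settings. The median over members turned sign in 3 of 36 alternatives, all with values near 0: at 1 h it was 0.030 when the 2 h array was left out of the other times, and at 4 h it was −0.038 without 1 h and −0.034 without 6 h. At 2 h it stayed positive and at 6 h negative in all 9 alternatives each. The limma trend called 0 members under all 11 alternatives, which says little where the fit could not find planted trends in simulated data. The fold of Cort at 4 h over 1 h and of Tac1 at 2 h over 1 h moved by less than 0.1 (log2) between scalings, while the 6 h to 2 h difference of Penk 94517_r_at was −0.92 after scaling to a common median and −0.90 after quantile normalization. The cause of these shifts was not tested. No paired analysis was possible because each time has 1 array. Vip, Tac1, Pdyn and Penk 94517_r_at were dim, with means nearer the floor, where ranges were wider throughout the array.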

Other observations

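Markers of other regions describe the tissue that the neuropeptide genes were read in. Thalamic markers, with all 8 genes on the array above the floor, summed to 3974, 4556, 4194 and 4098 at 1, 2, 4 and 6 h. At 2 h 6 of the 8 were above their other times and 2 below, beside 52.4% above over all genes. Tcf7l2, with the widest range among them, read 121, 494, 471 and 359, lowest at 1 h. Its dimmer probe set read 142, 103, 60.1 and 92.4, highest at 1 h and under the floor at 4 h and 6 h, so no single course of Tcf7l2 could be given. Markers of CA3 and CA2 summed to 7906, 7998, 7700 and 7573, most of it from Rgs14, which read 6122, 5921, 6297 and 5997. Of the 4 above the floor, 1 was above its other times at 4 h and 3 below (median −0.18), beside 2789 above and 2882 below of all 5671 genes. Nnat had the widest range of them, at 977, 1246, 674 and 710, lower at 4 h and 6 h than at 1 h and 2 h. What part these markers have in the values of the neuropeptide genes was not tested.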
